A study of Mus musculus with 6 samples.

Results

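Gstm5, Styk1, Ltf and Gpx3 are 4 of the 32285 genes measured in T cells from mouse glioma, and they were chosen because their transcripts were more abundant in CD8 T cells late in tumor growth than early. The tumors were CT2A, a mouse glioma line, grown in the brain of wild-type C57BL/6J mice aged 6 to 8 weeks. Cells carrying CD3 with either CD4 or CD8 were sorted at day 13 (16 mice in pools of 4) or at day 19 (4 mice), and the labels name no treatment for either group. Each day was 1 droplet capture with 10x Genomics 5' chemistry, read out as RNA, as tags of surface antibodies and as receptor contigs, so there is no replicate capture, and no test between days was made. Since the day contrast chose the genes, their difference between days is given as a description. Day, capture and the mice behind it cannot be told apart.

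The proteins have little in common. Gstm5 is a mu-class glutathione S-transferase, an enzyme that couples glutathione to reactive compounds, and Gpx3 is the secreted plasma glutathione peroxidase, a selenoprotein that reduces peroxides. Styk1 is a membrane protein with a kinase-like domain that is also known as NOK and is found in NK cells. Ltf encodes lactotransferrin, an iron-binding protein of secretory fluids and of the secondary granules of neutrophils. In tumors, CD8 T cells that meet antigen for long pass from a Tcf7-expressing progenitor state to a terminally exhausted one, which carries the inhibitory receptors PD-1 (Pdcd1) and TIM-3 (Havcr2).

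A cell here is a barcode with an assembled receptor contig, at least 5000 gene UMIs (unique molecular identifiers, each marking 1 captured molecule), at most 10% mitochondrial UMIs and at most 3 UMIs of the macrophage genes C1qa, Lyz2 and Csf1r together. This left 3775 cells at day 13 and 2159 at day 19. Cells were called CD8 T cells when Cd8a or Cd8b1 was detected without Cd4, and CD4 T cells when Cd4 was detected without Cd8a and Cd8b1. The CD8 class had 2646 cells early and 1436 late, the CD4 class 499 and 377, and the remaining 630 and 346 fell in neither. The contigs of each day came in 4 tables, called contig sets, whose link to single mice the labels do not give. No contig barcode was in more than 1 set of a day, and the matrices also hold 4 multiplexing tags, which were not used here. Without a link to mice or pools, the sets are treated as subdivisions of 1 capture and not as replicates. CD8 T cells held a median of 7199 gene UMIs at day 13 and 9097.5 at day 19, and their sums per set ran from 2637911 to 8823773 and from 1660198 to 7883628. Between the days, 58 contig barcodes recurred. Levels are CPM, the UMIs of a gene in a sum of cells scaled to 1000000 gene UMIs, and all intervals are exact 95% intervals that cover counting error only. Where a group had 0 UMIs, its ratio is a bound computed with 3 UMIs in that group, and groups with at most 3 UMIs each were given no ratio.

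On the mouse genome, Gstm5 (ENSMUSG00000004032) lies at chr3:107895854-107898685, Styk1 (ENSMUSG00000032899) at chr6:131299133-131353836, Ltf (ENSMUSG00000032496) at chr9:111019292-111042766 and Gpx3 (ENSMUSG00000018339) at chr11:54902854-54910387, all on GRCm38. The start of Gstm5 lies inside the long noncoding RNA gene 4933431E20Rik (chr3:107888850-107896213). The other members overlap no other gene of the RefSeq annotation. None of the RefSeq promoters used here is of Styk1. The 250 bases before the start are shown for Gstm5 and Ltf, because both kept most of their day-19 UMIs outside the droplets with choroid plexus RNA described further on. Both are from RefSeq, build GRCm38.p6, plus strand, written 5' to 3', with matches to a searched motif in capitals.
Gstm5 chr3:107895604-107895853: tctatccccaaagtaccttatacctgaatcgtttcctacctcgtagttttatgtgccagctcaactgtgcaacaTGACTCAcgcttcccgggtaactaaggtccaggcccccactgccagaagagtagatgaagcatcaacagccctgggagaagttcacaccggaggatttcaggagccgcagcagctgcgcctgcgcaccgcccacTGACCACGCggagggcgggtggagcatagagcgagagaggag
Ltf chr9:111019042-111019291: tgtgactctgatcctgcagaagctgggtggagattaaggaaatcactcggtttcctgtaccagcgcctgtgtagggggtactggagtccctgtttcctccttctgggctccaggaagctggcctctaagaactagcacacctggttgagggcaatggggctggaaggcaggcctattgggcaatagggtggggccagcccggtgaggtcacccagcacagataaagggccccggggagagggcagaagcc
The Gstm5 promoter held the AP-1 letters TGANTCA at bases -176 to -170 and the antioxidant response core TGACNNNGC at bases -42 to -34, counted back from the base before the start, both on the plus strand, where the former letters read the same on either strand. The former letters occur in 6.75% and the latter in 10.2% of the 32851 RefSeq promoters of the same length. Searched on both strands as well were the RUNX letters TGTGGT (14% of promoters), the hypoxia core ACGTG (16.6%) and the NR4A letters AAAGGTCA (1.34%), and on the plus strand the TATA letters TATAAA (7.59%). None of these 4 occurs in the Gstm5 window, and none of the 6 in the windows of Ltf and Gpx3. A match of letters is a description of the window and not a binding site.

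At day 19 all members were above their day-13 level in CD8 T cells, and in every contig set. Gstm5 had 0.379, 0, 0.124 and 0.865 CPM in day-13 sets 1 to 4 and 5.42, 11.5, 4.07 and 7.29 CPM in day-19 sets 1 to 4. Styk1 had 0.758, 0.567, 0.865 and 1.51 CPM in the day-13 sets and 5.42, 11.8, 10.6 and 4.56 CPM in the day-19 sets. The lowest day-19 set of either gene thus lay above the highest day-13 set, and set 2 was the highest for both. Ltf had 0.379, 0.567, 0.495 and 0 CPM at day 13, against 1.20, 4.95, 20.7 and 2.43 CPM at day 19, where set 3 stood far above the others. Gpx3 had no UMI in the day-13 sets, and 10.2, 0.127, 4.07 and 5.47 CPM in the day-19 sets, with a single UMI in set 2. For all 4 members the lowest late set was thus above the highest early set, which also held for 7.59% of the 12185 tested genes, those with 20 or more UMIs on the 2 days combined.

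**Figure D1:**
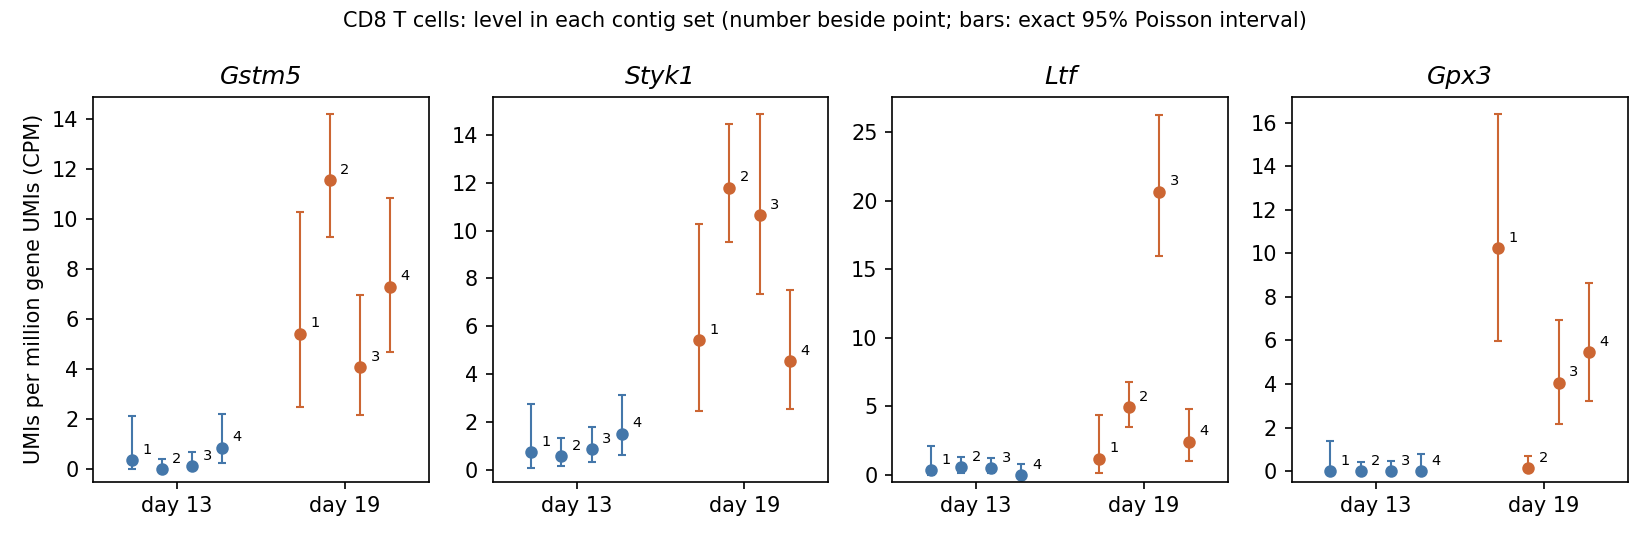
Level in CD8 T cells (CPM) of each gene in the 4 contig sets of day 13 and of day 19, with set numbers beside the points and exact 95% Poisson intervals. Every day-19 point lies above every day-13 point, Ltf is highest in set 3 and Gpx3 has 1 UMI in set 2.

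Summed over the sets, 6 UMIs of Gstm5 were counted early and 137 late, at 0.248 and 8.55 CPM, and the log2 ratio was 5.11 (3.95 to 6.58). For Styk1 the UMIs numbered 21 and 151, at 0.869 and 9.42 CPM, and the log2 ratio was 3.44 (2.77 to 4.17). For Ltf the 10 and 115 UMIs gave 0.414 and 7.17 CPM and a log2 ratio of 4.12 (3.19 to 5.21), which was 3.21 without day-19 set 3. Gpx3 had 0 and 49 UMIs, with 3.06 CPM at day 19, so its log2 ratio was at least 4.62. All 4 were at least 2-fold higher at day 19, as were 3.23% of the tested genes; the rule chose the members on this contrast, and nothing is read from that count. The ratio of Gstm5 moved to 6.38 without day-13 set 4, which held 4 of its 6 early UMIs, to 4.45 without day-13 set 2 and to 4.51 without day-19 set 2.

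The share of CD8 T cells with a UMI followed the same order. Gstm5 was detected in 98 of 1436 cells at day 19 (6.82%, 5.57 to 8.25) and in 6 of 2646 at day 13 (0.227%). With every cell thinned to 5000 UMIs, these shares were 2.86% and 0.113%. Styk1 was detected in 103 cells at day 19 (7.17%) and in 17 at day 13 (0.642%), or 3.69% and 0.227% after thinning. Ltf was detected in 22 cells (1.53%) and in 6 (0.227%), or 1.11% and 0.113% after thinning, and Gpx3 in 5 cells and in none. For comparison, Styk1 had a UMI in 3 of 377 CD4 T cells of day 19 (0.796%), whose median depth was 7868 UMIs.

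The UMIs were spread in different ways over the positive cells. Of the 98 Gstm5-positive cells, 69 had 1 UMI, 22 had 2 and 7 had more, with 5 as the highest, and the top 3 cells held 8.76% of its UMIs. Styk1 was alike in this, with 67 cells at 1 UMI, 24 at 2 and 12 at 3. Ltf was concentrated: its 5 highest cells had 23, 16, 15, 15 and 10 UMIs, and 6 cells with at least 5 UMIs held 86 of the 115 (74.8%). For Gpx3, 3 cells with 18, 16 and 13 UMIs held 95.9% of the total, and the remaining 2 cells had 1 UMI each. These 3 cells lay in sets 4, 1 and 3, so each of those sets owed its Gpx3 level to 1 cell, apart from 1 further UMI in set 1.

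The cells with high Gpx3 also held RNA of the choroid plexus, the epithelium that secretes cerebrospinal fluid. Its marker list was Ttr (transthyretin), Enpp2, Folr1, Kl, Clic6, Kcnj13 and Igfbp2. At day 19, 4 of the 1436 CD8 T cells held 2059 of the 2076 UMIs of this list, between 285 and 849 each, and 1839 of the 1840 Ttr UMIs, while no other cell had more than 4. Those 4 cells held 47 of the 49 Gpx3 UMIs and 23 of the 115 Ltf UMIs, all of the latter in the highest Ltf cell, but 2 of the Gstm5 and 5 of the Styk1 UMIs. In the other 1432 cells Gpx3 had 2 UMIs (0.125 CPM), Ltf 92 UMIs in 21 cells (5.76 CPM), Gstm5 135 UMIs (8.46 CPM) and Styk1 146 UMIs (9.15 CPM). With these droplets left out on both days, a choice made after seeing the data, the log2 ratios between days were 5.09 for Gstm5, 3.39 for Styk1 and 3.80 for Ltf, and none can be given for Gpx3, so 3 of the 4 members were past 2-fold. At day 13, 1 CD8 T cell had 10 or more UMIs of the list, and it had 14 of them with no Ttr and no Gpx3. The day-19 level of Gpx3 in CD8 T cells therefore rests on 3 droplets that carried both T cell and choroid plexus transcripts. Their origin was not tested, and no doublet caller was run.

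**Figure D2:**
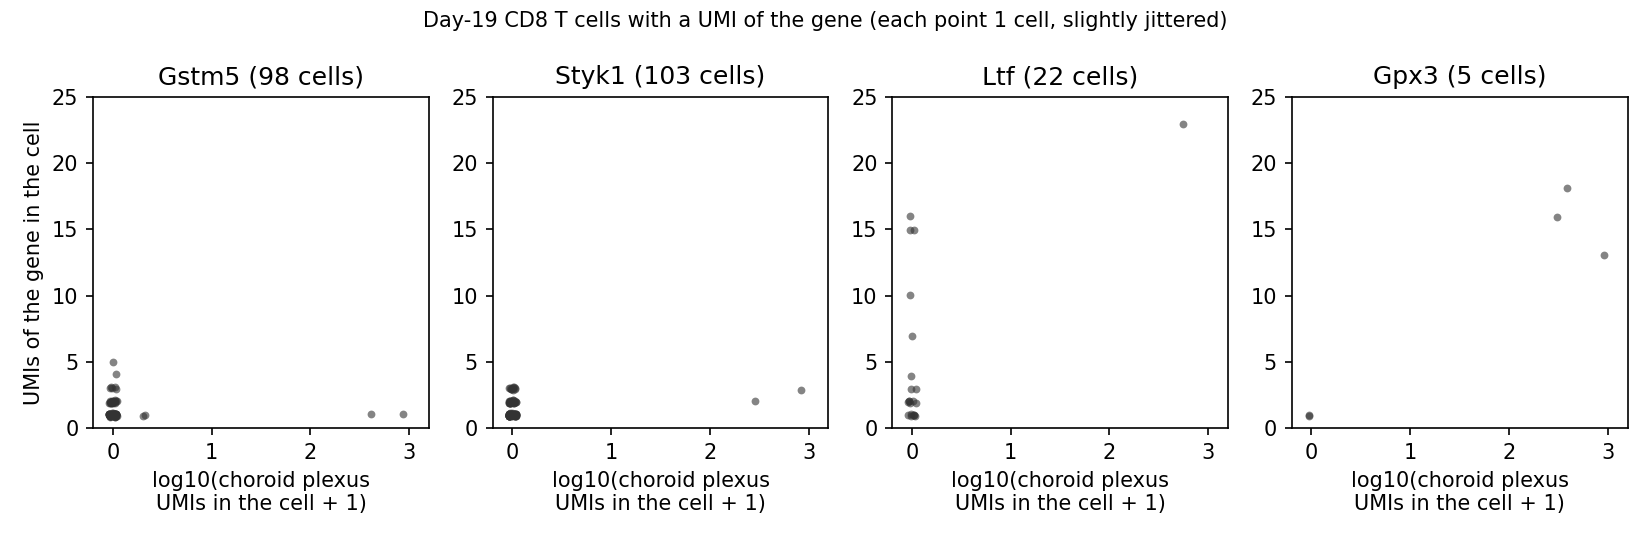
UMIs of each gene (y axis) against choroid plexus UMIs (x axis, log10 of the count plus 1) in the day-19 CD8 T cells with a UMI of that gene, each point 1 cell. The 3 cells with high Gpx3 lie at 285 to 849 choroid plexus UMIs, the highest Ltf cell at 534, and 94 of 98 Gstm5 and 101 of 103 Styk1 cells at 0.

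In CD8-marked droplets outside the contig sets, which the selection had not used, Gstm5, Styk1 and Ltf were also higher at day 19. These were droplets of at least 5000 UMIs with a Cd3 UMI, the CD8 coreceptor and at most 3 macrophage UMIs, 779 at day 13 and 158 at day 19. In them Gstm5 was at 0.325 and 6.92 CPM (3.88 to 11.4), Styk1 at 0.433 and 10.6 CPM (6.73 to 15.9) and Ltf at 0.325 and 4.15 CPM (1.90 to 7.89). Their Ltf at day 19 came from 2 droplets, 1 of them with 6 of its 9 UMIs. Gpx3 had 1 UMI at day 13 and none at day 19, where 0 UMIs allow up to 1.70 CPM. These droplets came from the same captures, so they are no replicate of the days. No share of all genes higher at day 19 was computed for them, so the direction is a description.

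Other kinds of droplet held the genes to different extents. In droplets without Cd3 but with at least 10 macrophage UMIs (581 at day 13 and 205 at day 19), Gpx3 stood at 4.86 and 13.9 CPM and Gstm5 at 2.77 and 8.12 CPM. Styk1 was at 0.867 and 0 CPM there, and Ltf had no UMI on either day. CD8 T cells with at least 10 macrophage UMIs, which the cell rule leaves out, had Gstm5 at 4.11 and 12.7 CPM, Gpx3 at 1.64 and 10.7 CPM, and Ltf at 0 and 22.7 CPM, the last in 8 of 288 cells. Without the macrophage limit, the log2 ratio of Gstm5 between days was 3.62. Styk1 was highest in droplets with NK markers and no Cd3: 6 UMIs in 16 droplets at day 13 (59.9 CPM, 22.0 to 130) and 20 UMIs in 22 droplets at day 19 (88.5 CPM, 54.1 to 137). None of the other members had a UMI in those droplets, which allows up to 16.3 CPM at day 19. By measured level in these kinds of droplet, Styk1 was thus highest in NK-marked ones and Gpx3 in those with macrophage UMIs and no Cd3. The limit of 16.3 CPM for Gpx3 in day-19 NK-marked droplets lies above its 13.9 CPM in the latter. Gpx3 was at 400.1 CPM in the 6 day-19 droplets of any kind with at least 100 choroid plexus UMIs, and 4 of them had it. Of the 53 UMIs there, 47 were in the 3 CD8 droplets described above. The 2 such droplets of day 13 had no Gpx3. Gstm5 was present in both CD8 T cells and macrophage-bearing droplets. Fewer positive cells and less RNA per cell cannot be told apart in these sums. Macrophage UMIs of 1 to 3 were present in 21.4% of Gstm5-positive, 20.4% of Styk1-positive and 31.8% of Ltf-positive day-19 CD8 T cells, against 14.8% of all. With 0 macrophage UMIs in every cell, the log2 ratio between days was 5.06 for Gstm5, 3.39 for Styk1 and 3.49 for Ltf.

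**Figure D3:**
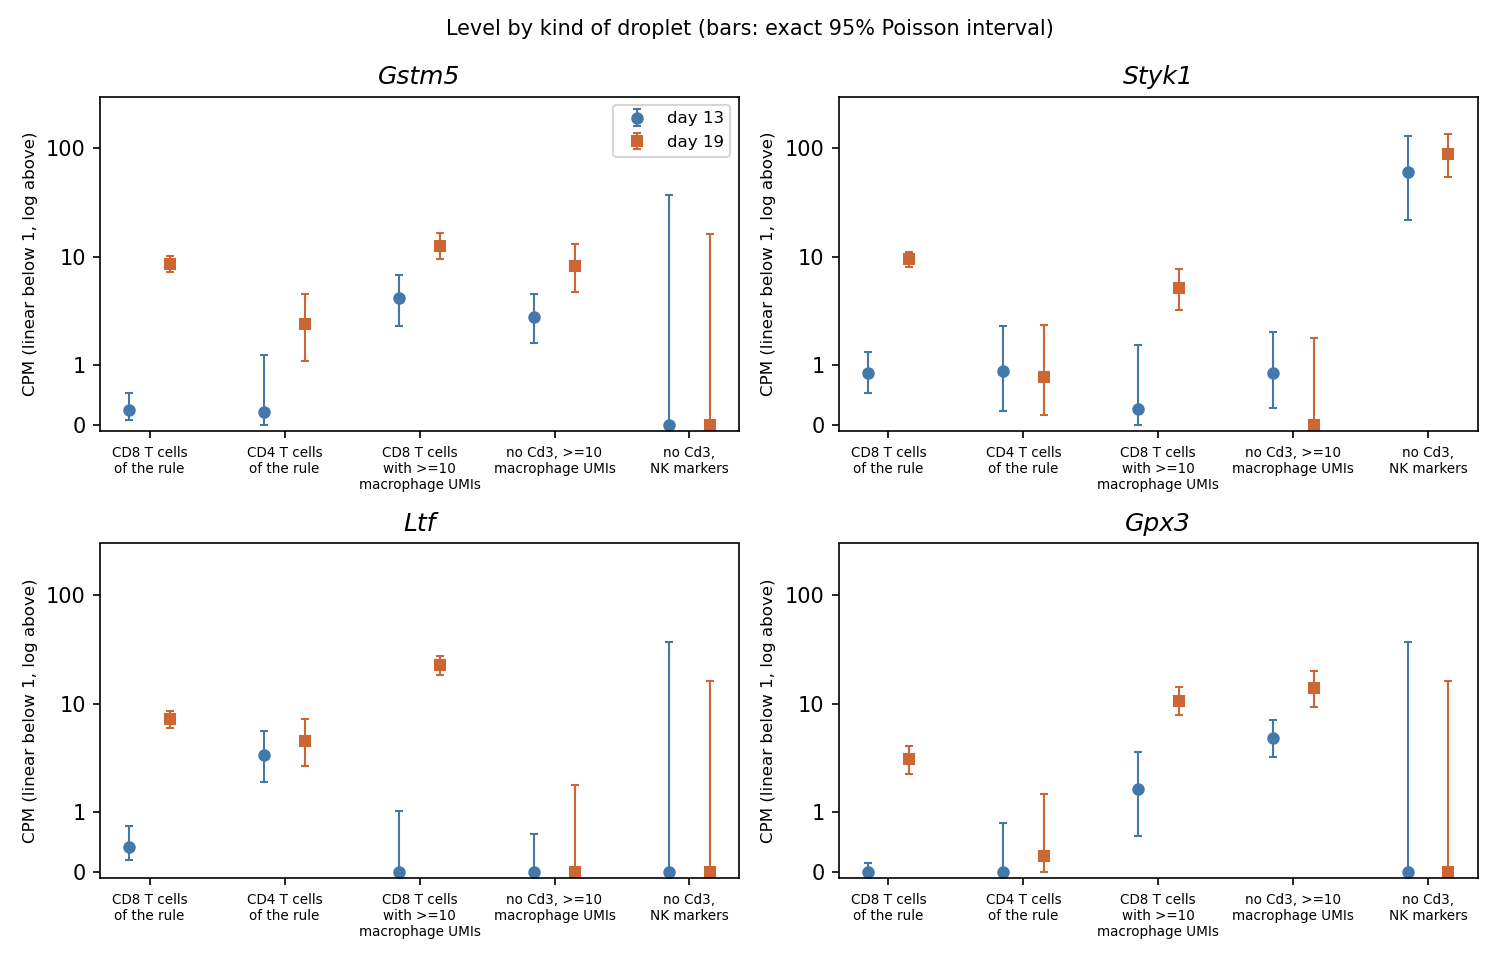
Level of each gene (CPM, linear below 1 and logarithmic above) in 5 kinds of droplet on both days, with exact 95% Poisson intervals. Styk1 is highest in NK-marked droplets at 59.9 and 88.5 CPM, Gpx3 in droplets with macrophage UMIs and no Cd3, and Ltf has no UMI in the latter.

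Within the CD8 T cells of day 19 the members were concentrated in cells that carried the inhibitory receptors. Cells with neither Pdcd1 nor Havcr2 (687) had 0.314 CPM of Gstm5, those with Pdcd1 alone (364) 7.86, those with Havcr2 alone (25) 14.4 and those with both (360) 19.3. Styk1 had 0.942, 8.55, 5.78 and 21.3 CPM in the same order of states, and Ltf 0, 3.47, 0 and 20.1 CPM. Gpx3 had 0.157, 0.231, 0 and 9.42 CPM. Cells with Havcr2 alone were too few to place, since their Gstm5 interval ran from 4.69 to 33.7 CPM and that of Styk1 from 0.700 to 20.9.

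Between cells with both receptors and cells with neither, the log2 ratio was 5.94 (4.05 to 9.0) for Gstm5, 4.50 (3.33 to 5.97) for Styk1, at least 5.41 for Ltf and 5.91 (3.36 to 11.24) for Gpx3. Without set 1 it was 6.82 for Gstm5 and 5.37 for Styk1. All 4 were thus at least 2-fold higher, against 9.31% of the 10467 tested genes, but 3 of them without the choroid plexus droplets, which held all 47 Gpx3 UMIs of the double-positive cells. Gstm5 was at 11.6, 23.0, 11.5 and 19.3 CPM in the double-positive cells of sets 1 to 4 and at 1.49, 0.355, 0 and 0 CPM in the double-negative ones. Styk1 was at 14.5, 20.6, 27.8 and 17.9 CPM against 4.48, 0.709, 0.762 and 0 CPM. The sets of the 2 states did not overlap for Gstm5 or Styk1, a separation that 13.7% of genes showed. Ltf was at 5.79, 9.06, 63.2 and 8.26 CPM in the double-positive cells and at 0 in all 4 double-negative sums, with a bound of 3.86 on the log2 ratio without set 3 and of 5.06 without the choroid plexus droplets. These 3 genes were higher in 4 of 4 sets, as were 23% of tested genes, and Gpx3 was so in 3 of 4. With Pdcd1 alone against neither, the log2 ratio was 4.65 (2.68 to 7.75) for Gstm5, 3.18 (1.93 to 4.72) for Styk1 and at least 2.88 for Ltf, the last from 15 UMIs and so outside the tested genes (background 7.1%). Adding Havcr2 to Pdcd1 went with a further log2 ratio of 1.29 (0.71 to 1.90) for Gstm5, 1.31 (0.76 to 1.90) for Styk1 and 2.53 (1.74 to 3.42) for Ltf, against a background of 2.01%.

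**Figure D4:**
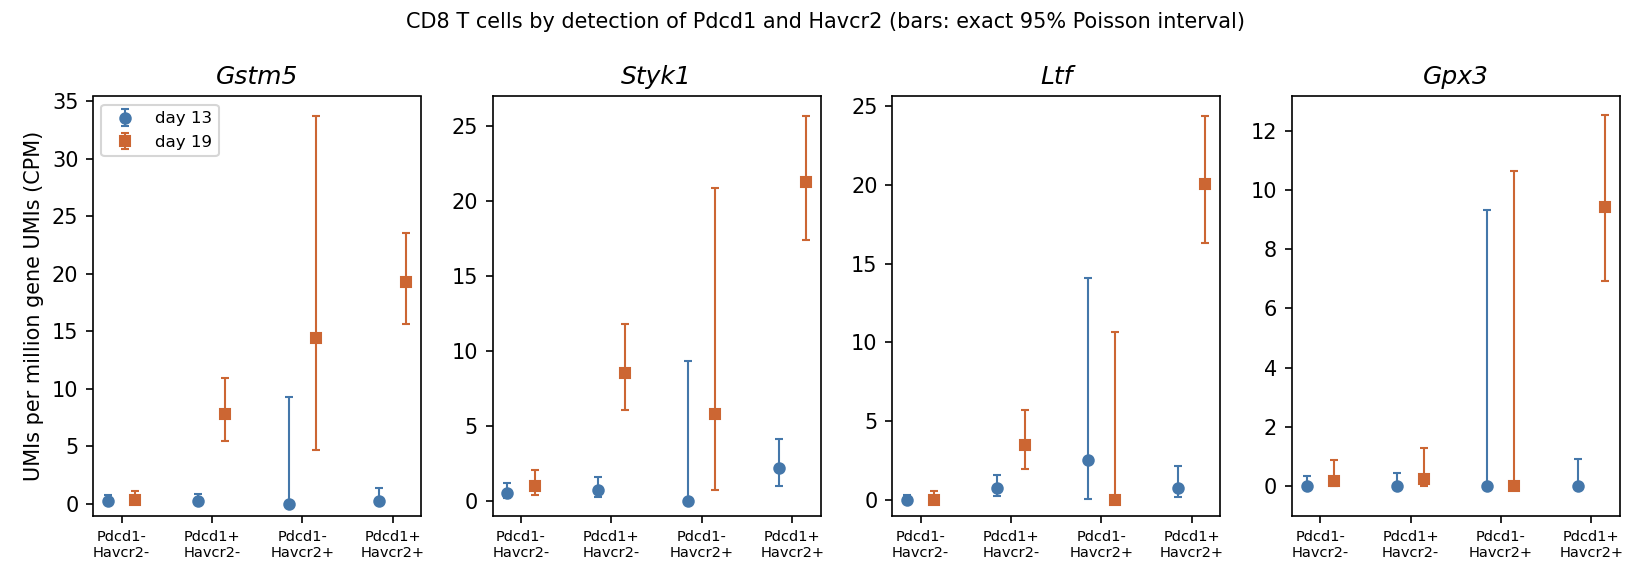
Level of each gene (CPM) in CD8 T cells grouped by detection of Pdcd1 and Havcr2, circles for day 13 and squares for day 19, with exact 95% Poisson intervals. The day-19 level of Gstm5 goes from 0.314 CPM with neither receptor to 19.3 CPM with both, and the day-13 points stay at or below 2.53 CPM.

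The states call for more UMIs in a cell, and their depths differed: the median was 7499 UMIs with neither receptor and 12185.5 with both. Levels in CPM are not raised by depth, but shares of positive cells are. Gstm5 was detected in 18.9% of double-positive cells (15.0 to 23.3) and in 0.291% of double-negative ones, or in 7.78% and 0.291% after thinning. Styk1 was detected in 19.4% and 0.728%, or in 10.0% and 0.291% after thinning, and Ltf in 5.28% and 0%, the latter with an upper limit of 0.536%.

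The day difference was present inside the receptor-positive states, while the receptor-negative cells had too few UMIs to measure it. These states are parts of the CD8 T cells whose day contrast chose the genes. Their ratios between days are a description, and nothing is read from the backgrounds. Within double-positive cells, 264 at day 13 and 360 at day 19, the UMIs of Gstm5 numbered 1 and 96, with a log2 ratio of 6.31 (3.80 to 11.63). Styk1 had 9 and 106 UMIs there (3.29, 2.31 to 4.45), Ltf 3 and 100 (4.79, 3.2 to 7.09) and Gpx3 0 and 47 (at least 3.70); the background of genes at least 2-fold higher was 2.97%. Within cells with Pdcd1 alone, the log2 ratio was 5.01 (3.04 to 8.11) for Gstm5, 3.54 (2.29 to 5.08) for Styk1 and 2.24 (0.79 to 3.89) for Ltf, with a background of 3.59%. In double-negative cells, 1530 at day 13 and 687 at day 19, Styk1 had 6 UMIs on both days (log2 ratio 0.85, -1.06 to 2.75), Gstm5 had 3 and 2, Ltf had none and Gpx3 had 0 and 1 (background 3.26%). Whether the day difference itself differs between states was not tested. All 47 Gpx3 UMIs of the double-positive cells lay in 3 choroid plexus droplets, and the other 357 cells had none. Double-positive cells thus held less Gstm5, Styk1 and Ltf at day 13 than at day 19. Neither the receptors' own levels nor the progenitor and granzyme genes of these cells were matched between days, so they need not be like cells.

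Among the cells with a UMI of each gene, most had both inhibitory receptors. Both receptors were detected in 69.4% of Gstm5-positive cells (59.3 to 78.3), 68.0% of Styk1-positive cells (58.0 to 76.8) and 86.4% of Ltf-positive cells (65.1 to 97.1), against 25.1% of all CD8 T cells. Tcf7, the transcription factor of the progenitor state, was detected in 4 of 98 Gstm5-positive cells, 3 of 103 Styk1-positive cells and 0 of 22 Ltf-positive cells, which allows up to 15.4% of the last, against 47.4% of all CD8 T cells. Cell cycle genes (Mki67 or Top2a) were detected in 58.2%, 44.7% and 45.5%, against 34.3% overall. The positive cells were deeper, at medians of 12186.5, 11963 and 13918.5 UMIs against 8846, 8843 and 9014 in their negative counterparts, and these shares were not thinned.

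The fixed gene lists gave the same outline for positive against negative cells. Of 12 progenitor genes, 10 were at least 2-fold lower in Gstm5-positive cells, with a median log2 ratio of -2.88, where 4.86% of all tested genes were that low and their median was 0.02. The count was also 10 of 12 for Styk1 (background 5.36%) and for Ltf (background 4.13%), where the other 2 were counted as higher. Sums under 3 UMIs were set to 3, which is 9.03 CPM in the 22 Ltf-positive cells. Genes at low levels can thus count as higher with Ltf without being so, also in the background of all genes. Of 15 terminal exhaustion genes, 6 were at least 2-fold higher with Gstm5 (median 0.91, background 4.24%), 7 with Styk1 (median 0.96, background 3.33%) and 9 with Ltf (median 1.11, background 20.5%). Of 11 cytotoxic granule genes, 7 were higher and 1 lower with Gstm5, with a median of 2.04. With Styk1, 5 were higher and 4 lower, with a median of 0.41, and with Ltf 2 were higher and 5 lower, with a median of -0.64. These lists share cells with the receptor states above, which had 15 of 15 terminal genes at least 2-fold higher in double-positive cells (background 9.31%) and 12 of 12 progenitor genes at least 2-fold lower (background 7.67%). Pdcd1 and Havcr2, which define those states, are 2 of the 15.

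Gzmc and Gzmf, granzymes of strongly activated cytotoxic cells, marked 307 of the 1436 day-19 CD8 T cells. Gstm5 was at 6.35, 23.9, 11.1 and 15.7 CPM in granzyme-positive cells of sets 1 to 4 and at 5.05, 5.90, 2.02 and 3.85 CPM in granzyme-negative cells. Styk1 was at 14.8, 22.7, 20.8 and 10.5 CPM against 1.68, 6.83, 7.68 and 2.14 CPM. Neither gene's sets overlapped, as for 7.01% of genes. Over all sets the log2 ratio was 2.02 (1.5 to 2.54) for Gstm5 and 1.79 (1.31 to 2.28) for Styk1. Ltf had 2.21 (1.64 to 2.81), but 0.66 without set 3 and 3.17 without set 2. Gpx3 had 0.26 (-0.70 to 1.16), with 1.40 without set 4 and at most -2.11 without set 1, and it was higher in 1 set and lower in 3. At least 2-fold higher were thus 3 of 4 members, against 3.22% of genes. Gstm5 and Styk1 were higher in 4 of 4 sets, as were 16.3% of genes, and Ltf in 3 of 4. Inside the double-positive state, 190 granzyme-positive and 170 granzyme-negative cells gave log2 ratios of 0.53 (-0.10 to 1.20) for Gstm5, 0.07 (-0.51 to 0.67) for Styk1 and 1.05 (0.38 to 1.77) for Ltf (background 1.48%). Gpx3 was lower in the granzyme-positive cells there, at -1.49 (-2.46 to -0.57), with 16 and 31 UMIs, all in the 3 choroid plexus droplets. The intervals of Gstm5 and Styk1 span no difference, and they leave room for a 2-fold one in Gstm5 only. Granzyme-negative cells had the day difference too, with log2 ratios of 4.34 (3.03 to 6.02) for Gstm5, 2.69 (1.93 to 3.51) for Styk1 and 3.28 (2.17 to 4.59) for Ltf (background 2.45%). They are part of the contrast that chose the genes, so this is a description.

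Clones were cells of a contig set with identical CDR3 nucleotides of 1 TRA and 1 TRB chain, and 944 day-19 CD8 T cells had such a pair. The share with Gstm5 was 1.70% in cells seen once, 4.35% in clones of 2, 13.3% in clones of 3 to 9 and 26.7% (19.7 to 34.7) in clones of 10 or more. For Styk1 the shares were 2.63%, 6.52%, 12.4% and 21.2% (14.9 to 28.8) in the same order. Both genes thus had their highest share in the largest clones, where thinned shares were 12.3% and 10.3%, against 0.618% and 1.08% in cells seen once. Ltf did not follow this order, with 0.464%, 2.17%, 5.71% and 2.05%. At day 13, the 195 cells of clones of 10 or more had Gstm5 in 1 cell (0.513%) and Styk1 in 2 cells (1.03%).

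**Figure D5:**
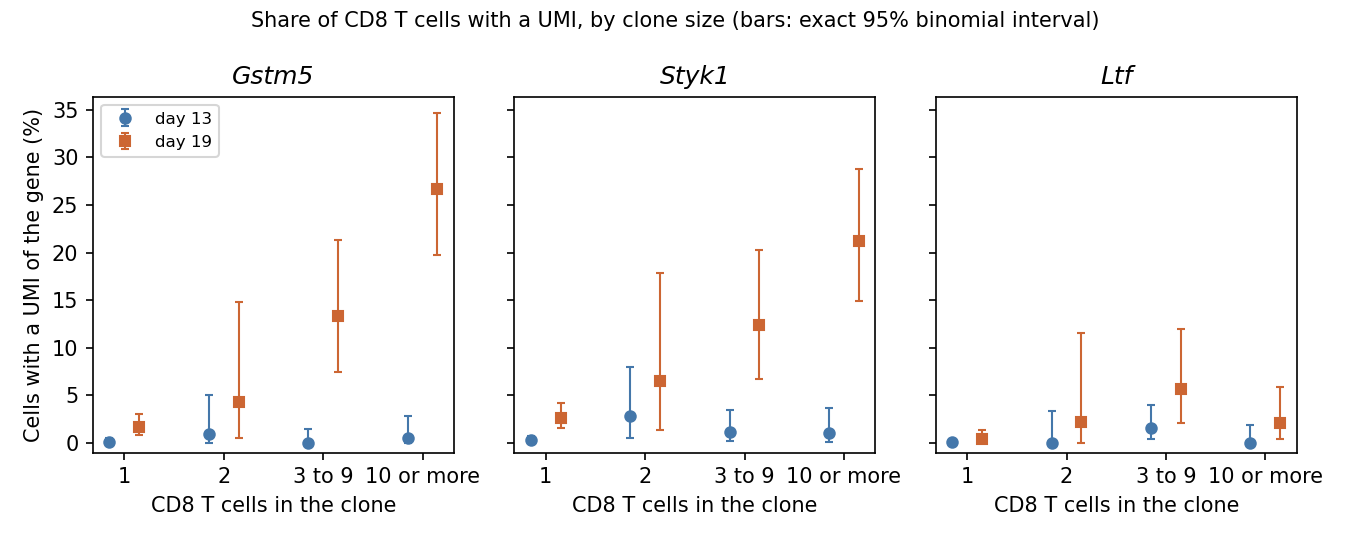
Share of CD8 T cells (%) with a UMI of Gstm5, Styk1 or Ltf by the size of the clone, circles for day 13 and squares for day 19, with exact 95% binomial intervals. At day 19 Gstm5 goes from 1.70% in single cells to 26.7% in clones of 10 or more, while Ltf has no such order.

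Expanded clones, of at least 3 cells, held 251 cells, and 647 cells were seen once. Gstm5 was at 22.1 CPM in expanded and 2.24 CPM in single cells, a log2 ratio of 3.30 (2.48 to 4.22) that was 2.64 without set 2. Styk1 had 20.8 and 4.18 CPM, or 2.31 (1.65 to 3.01) and 1.64 without set 2. Ltf had 17.5 and 1.05 CPM, or 4.07 (2.92 to 5.45) and 1.78 without set 3. For Gpx3 the ratio was 1.24 (0.13 to 2.36), but at most -1.16 without set 1. That set held all 16 UMIs of expanded cells, in 1 of the choroid plexus droplets, so that expanded cells were then at 0. All 4 were above a log2 ratio of 1, against 6.27% of genes (3 of them without the choroid plexus droplets), and Gstm5, Styk1 and Ltf were higher in 4 of 4 sets, against 16.2%. Within the double-positive state, 154 expanded and 41 single cells gave 0.62 (-0.47 to 1.91) for Gstm5, -0.83 (-1.61 to -0.01) for Styk1 and 1.74 (0.29 to 3.67) for Ltf (background 5.16%). Single cells had the day difference as well, with 3.70 (1.60 to 6.87) for Gstm5, 2.80 (1.57 to 4.24) for Styk1 and 3.6 (0.64 to 9.10) for Ltf. Only Styk1 had the 20 UMIs of a tested gene there, of which 2.57% were at least 2-fold higher, while Gstm5 had 15 and 2 UMIs and Ltf 7 and 1. Single cells are part of the contrast that chose the genes, so this is a description as well.

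The positive cells were not products of 1 clone. The 66 Gstm5-positive cells with a clone belonged to 28 clones, the 64 Styk1-positive cells to 34 and the 13 Ltf-positive cells to 10. Of 16 clones with at least 5 CD8 T cells at day 19, 12 held a Gstm5-positive cell, 12 a Styk1-positive cell and 6 an Ltf-positive cell, and of 31 such clones at day 13 the counts were 1, 4 and 2. The largest clone, 57 cells of set 2 with TRAV6D-5 and TRBV26, had Gstm5 in 18 cells (31.6%, 19.9 to 45.2), Styk1 in 15 (26.3%, 15.5 to 39.7) and Ltf in 0. The last allows detection in up to 6.27% and does not bound the share of cells that express it. A clone of 18 cells in set 4 had Gstm5 in 7 cells, Styk1 in 1 and Ltf in 2. The intervals of the shares in these clones overlapped, and within a clone most cells had no UMI of a given gene.

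A pair of large clones allows the days to be set side by side in cells with nearly the same receptor. The alpha chain of both joined TRAV7D-2 to TRAJ7 and the beta chain TRBV16 to TRBJ2-7, and they were chosen after their receptors had been seen. The CDR3 nucleotides are shown because they are what makes the clones comparable, with the bases that differ in capitals.
TRA day 13, set 4: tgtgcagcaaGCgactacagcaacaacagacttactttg
TRA day 19, set 3: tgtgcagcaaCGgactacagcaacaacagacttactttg
TRB day 13, set 4: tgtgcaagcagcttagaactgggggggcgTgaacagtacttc
TRB day 19, set 3: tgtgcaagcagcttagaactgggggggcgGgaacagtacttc
The TRA sequences differ at 2 of 39 bases and the TRB sequences at 1 of 42. Both receptors were detected in 29 of the 30 day-13 cells and in 34 of the 38 day-19 cells, and Gzmc or Gzmf in 14 and 16. Styk1 had 1 UMI in 1 cell at day 13 (1.47 CPM) and 16 UMIs in 11 cells at day 19 (27.2 CPM), a log2 ratio of 4.21 (1.53 to 9.60). Gstm5 had 0 UMIs and 7 UMIs in 5 cells (11.9 CPM), at least 1.44 on the log2 scale. Ltf had 0 and 16 UMIs, the latter all in 1 cell, and Gpx3 had none on either day. The clones come from different mice and different captures, and nothing shows descent of one from the other. Their cells are part of the contrast that chose the genes. Another clone, 23 cells of day-19 set 2, had the same TRA nucleotides as the day-19 clone above with another TRB, and it held Gstm5 in 5 cells and Styk1 in 4.

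CD4 T cells held less of Gstm5 and Styk1 than CD8 T cells did, for Gstm5 past 2-fold only with a limit on macrophage UMIs. At day 19 the log2 ratio of CD8 over CD4 T cells was 1.84 (0.87 to 3.0) for Gstm5, 3.56 (1.99 to 5.86) for Styk1, 0.67 (-0.07 to 1.50) for Ltf and 3.53 (0.98 to 8.86) for Gpx3, so 3 of 4 were past 2-fold, against 4.7% of genes. Without the choroid plexus droplets the count was 2, since Gpx3 then had 2 UMIs in CD8 T cells (0.125 CPM) and 1 in CD4 T cells (0.266 CPM) and no ratio. That of Gstm5 was 0.46 without the macrophage limit and 3.10 without set 2, and that of Ltf -0.54 without set 3 and 3.11 without set 4. In CD4 T cells Gstm5 had 1 UMI at day 13 and 9 at day 19 (0.224 and 2.39 CPM), Styk1 had 4 and 3 (0.894 and 0.796 CPM) and Gpx3 had 0 and 1. Ltf had 15 UMIs in 4 cells at day 13 and 17 in 6 cells at day 19 (3.35 and 4.51 CPM), with 11 of the latter in 1 cell. The log2 ratio between days in CD4 T cells was 3.42 (0.57 to 8.87) for Gstm5, -0.17 (-2.94 to 2.40) for Styk1 and 0.43 (-0.66 to 1.53) for Ltf, where 3.16% of tested genes were at least 2-fold higher, though Gstm5 and Styk1 had fewer than the 20 UMIs of a tested gene.

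Ltf-positive cells had no other sign of neutrophil RNA. None of the 15 neutrophil genes of the marker list, among them Camp, Ngp, Lcn2, S100a8, S100a9 and Mpo, had a UMI in the 22 cells. The 1414 Ltf-negative CD8 T cells had 5 UMIs of the list (0.318 CPM), so this does not set the 2 groups apart. The T cell list had 2044 UMIs there, and 6 of its 7 genes were detected, with Cd4 at 0 by the class rule. Of the macrophage list, 6 of 10 genes were detected with 71 UMIs, 21 of them in 1 cell, which was 213.7 CPM against 77.3 CPM in Ltf-negative CD8 T cells. The part of this RNA in the genes that went with Ltf was not tested. Adgre1, Fcgr3, Tmem119 and P2ry12 were at 0.

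The genes that went with Ltf differed from those of Gstm5 and Styk1. Highest in Ltf-positive cells was Tmprss6, a membrane serine protease of iron regulation in the liver, detected in 13 of 22 cells (59.1%, 36.4 to 79.3) and in 3.04% of Ltf-negative cells. The log2 ratio of its level was 4.97 (4.40 to 5.52). Without the choroid plexus droplet the count was 12 of 21, and inside the double-positive state it was 11 of 19 against 8.21%. In CD8 T cells with at least 4 macrophage UMIs, which the ranking had not used, it was 4 of 10 (40.0%, 12.2 to 73.8) against 2.82%, and outside the contig sets, in Cd3-positive droplets of any T cell class with at most 3 macrophage UMIs, 1 of 7. At day 13, none of the 6 Ltf-positive CD8 T cells had it, which allows up to 45.9%. Next came Epdr1 (3.22), the chemokine Ccl12 (3.18), Nrn1 (3.08), the cell cycle inhibitor gene Cdkn2a (2.95), Rgs8 (2.7), Fry (2.68) and the transporter gene Slc16a11 (2.63), all as log2 ratios. Gzmk, another granzyme, was detected in 19 of 22 Ltf-positive cells (86.4%, 65.1 to 97.1) and in 29.4% of all CD8 T cells, against 46.9% with Gstm5 and 39.8% with Styk1. Inside the double-positive state it was 17 of 19 against 52.8%. In the 7 Ltf-positive droplets of any T cell class outside the contig sets it was detected in 4. Of the 11 granule genes, 5 were at least 2-fold lower with Ltf, as given above.

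With Gstm5 went Spp1 (osteopontin, log2 ratio 3.87), Gzmc (2.85), the adenosine receptor gene Adora3 (2.74), Gzmf (2.50), the receptor gene Glp1r (2.44), the uridine phosphorylase gene Upp1 (2.41), the glycosyltransferase gene B4galnt2 (2.16) and Styk1 (2.05). With Styk1 went Fcrl6 (2.51), the peptide gene Calca (2.49), the glycosyltransferase gene Gcnt1 (2.36), Gzmc (2.31), Gstm5 (2.29), Gipc2 (2.25), Gzmf (2.24) and the glucuronosyltransferase gene Ugt1a7c (2.24). The pair thus named each other: Styk1 was detected in 25 of 98 Gstm5-positive cells (25.5%, 17.2 to 35.3) and in 5.83% of Gstm5-negative cells. Inside the double-positive state these shares were 25% (15.3 to 37.0) and 18.2% (13.9 to 23.1), with overlapping intervals. Outside the contig sets, in Cd3-positive droplets of any T cell class, which the ranking had not used, Styk1 was detected in 5 of 17 Gstm5-positive droplets (29.4%) and 4.40% of the rest, and B4galnt2 in 29.4% and 3.66%. There, Gcnt1 was detected in 7 of 17 Styk1-positive droplets (41.2%) and in 9.16% of the rest. The other ranked genes were counted there as well and are not given, and these shares were not thinned. Ltf was detected in 4 Gstm5-positive and 2 Styk1-positive cells and in no Gpx3-positive cell. With Gpx3 went Chil1 (at least 12.57), Clu (10.71), Enpp2 (10.47) and Ttr (9.55), then Trf (6.69), App (6.28), Mt3 (5.67) and Ly6d (5.59). Of the 5 Gpx3-positive cells, 3 were the choroid plexus droplets. The first 6 genes were each detected in 60% of the 5 cells, Mt3 in 80% and Ly6d in 20%. B cell markers had 25 UMIs in Gpx3-positive cells, or 445 CPM against 12.8 CPM in negative cells, and 0 UMIs in the 3 choroid plexus droplets. Their part in this ranking was not tested.

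Across 16 sums of CD8 and CD4 T cells by set and day, genes were ranked by the Pearson correlation of log2(CPM + 1) with each member. The sums of a day share a library, and this is a description. Nearest to Styk1 were Adgrg3 (0.93), Litaf (0.86), Gzmf (0.85), Calca (0.84) and Vipr2 (0.84), of which Gzmf and Calca were also among the genes of Styk1-positive cells. Nearest to Gstm5 were Tmem256 (0.89), Chst12 (0.87), Cdk6 (0.86) and Eef2 (0.86). For Ltf the coefficients were lower, with Vbp1 (0.73), Entpd1 (0.71), Gcnt1 (0.71), Atp6v1a (0.70) and Tmem273 (0.70). Ttr was first for Gpx3 (0.88), followed by Syncrip (0.83), Snhg4 (0.83), Atad3a (0.82) and Snhg3 (0.81).

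Surface antibody tags were read as the median per 1000 tag UMIs of a cell. CD39, an ectoenzyme of exhausted cells encoded by Entpd1, was at 18.2 in Gstm5-positive and 15.0 in Gstm5-negative CD8 T cells, and at 18.6 and 15.0 for Styk1. Double-positive cells without Gstm5 had 17.9, close to the positive cells. CD62L, a homing receptor of naive and memory cells, was at 0.380 in Gstm5-positive and 0.881 in Gstm5-negative cells. CD38 was at 5.02 in Ltf-positive and 2.96 in Ltf-negative cells, and at 3.46 in double-positive cells without Ltf. The PD-1 and TIM-3 tags barely separated the groups, with 12.8 and 12.4 for PD-1 and 3.35 and 3.17 for TIM-3 with and without Gstm5. An isotype control (IgG1) read 2.64 and 2.53 in these groups. Both CD62L values lie under it, so their difference is not read as one of protein.

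The paralogs of Gstm5 and Gpx3 mostly had smaller differences between days. Gstm1, the most studied mu-class transferase, had 37 and 27 UMIs in CD8 T cells (log2 ratio 0.14, -0.63 to 0.89) and Gstm4 43 and 46 (0.69, 0.06 to 1.32). Gstm2, Gstm3, Gstm6 and Gstm7 had at most 3 UMIs on either day. The abundant cellular peroxidases Gpx1 and Gpx4 had log2 ratios of -0.03 (-0.09 to 0.04) and 0.09 (0.04 to 0.15). Gpx8, a peroxidase of the endoplasmic reticulum, went the same way as Gpx3 from 7 and 12 UMIs (1.37, -0.09 to 2.95), and had 1 and 11 UMIs in double-positive cells (3.19, 0.40 to 8.61). The sources used here do not say how reads shared between near-identical transferases were counted, so the split within the Gstm family is uncertain. The noncoding gene 4933431E20Rik, which overlaps Gstm5, had 2 and 23 UMIs (log2 ratio 4.12, 2.10 to 7.25), and its neighbour Eps8l3 had 0 and 11 (at least 2.47). They do not say either whether strand separated the overlapping pair. Next to Styk1, Magohb had a log2 ratio of 0.64 and Ybx3 of 0.14. Beside Ltf, Ccrl2 was lower at day 19 (-0.78), and beside Gpx3 were Hint1 (0.30) and Tnip1 (-0.38).

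Of 38 further glutathione and peroxide enzymes, 33 were tested between days and 4 were at least 2-fold higher, namely Gsta4 (1.54), Srxn1 (1.53), Gstp2 (1.26) and Gstt1 (1.18), against 3.23% of all genes. The cystine transporter gene Slc7a11 was lower (-1.09), against 4.04%. The median of the list was 0.13, and that of all tested genes was -0.04. Between double-positive and double-negative cells, 5 of 27 were at least 2-fold higher, namely the sulfiredoxin gene Srxn1 (5.08), Gstt3 (3.81), Gstt1 (3.68), Hmox1 (1.18) and Prdx5 (1.02), against 9.31% of genes, and Mgst2 was lower (-1.03), against 7.67%. Srxn1 and Gstt1 were thus past 2-fold in both comparisons, like Gstm5. Of 11 selenoproteins and genes of selenium supply and selenoprotein synthesis and 9 tested genes of iron handling, 0 were past 2-fold in either direction between days, with medians of -0.16 and -0.06. Of 14 innate-type receptor genes, 4 were higher at day 19, namely Fcer1g (1.89), Klrb1c (1.63), Itga1 (1.23) and Klre1 (1.11), and 2 were lower, Klrg1 (-1.61) and Itgae (-1.02).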

How the data were processed

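Cells sorted from CT2A tumors were measured at 2 time points, with 3 libraries each. The authors deposited raw counts (UMIs of each gene and antibody tag) for 736611 barcodes at day 13 and 735849 at day 19, with 144565182 and 81224453 gene UMIs, and the deposited contig tables give UMI counts per assembled receptor chain. Per the submitters' processing notes, the authors used bcl2fastq 2.20, Cell Ranger 4.0.0, STAR 2.7.5c, Seurat and R 4.1.2 with mm10. The sources used here do not give the counting settings.

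Counts were summed over cells with Python 3.11.15, numpy 2.4.6, scipy 1.17.1 and pandas 2.3.3. Each day is 1 capture, and the 4 multiplexing tags, which the labels do not tie to mice, were not used, so no test across samples was made and no p-value is given. Levels have exact Poisson intervals, ratios conditional binomial ones and shares Clopper-Pearson ones, which treat UMIs as independent molecules. The code for ratios and intervals was tested on simulated data. A gene counted as tested when the 2 sums held 20 or more UMIs, and as higher or lower past a log2 ratio of 1 or -1, with sums under 3 counts set to 3. Shares were thinned to 5000 UMIs per cell. No doublet caller was run.

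The members, gene lists and marker lists were chosen with earlier results of these data known. Named besides the members were the 8 genes with the highest ratio in positive over negative day-19 CD8 T cells (at least 50 UMIs in both sums, a UMI in at least 10% of positive cells) and the 5 with the highest correlation (at least 100 UMIs), without receptor segments, ribosomal, mitochondrial, Gm, Rik, Xist, Tsix and Y-linked genes. 1 gene that this rule names is not reported here. Other genes named come from the fixed lists, families and neighbours. Coordinates are from the RefSeq gene and promoter tables of GRCm38.p6, which is the build called mm10. Styk1 was matched among the genes but has no entry among the promoters, so no promoter of it is shown. Alternatives were other UMI and macrophage limits, each set left out, equal weight of sets, thinning, no cycling cells, 2 UMIs of the coreceptor and the highest cell left out.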

Additional observations from a re-analysis of the deposited data

How the results depend on the processing

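The captures limit these values: with 1 per day and few UMIs per cell, intervals cover counting error only, and Gpx3 and Ltf rest on a few cells each. No paired analysis was possible because the labels give 1 gene expression sample per day and tie neither contig sets nor multiplexing tags to mice or pools. Of 374 values under alternative settings, 310 moved by less than the counting interval, 56 moved by more and 8 changed sign; the cause was not tested. All values are log2 ratios. Every value given here of Gpx3 between days and of Ltf by state is a lower bound, set by the floor of 3 UMIs, because the other group was at 0. "At least" and "at most" mark the other bounds. With the mean of contig sets, the ratio between days was 5.33 for Gpx3, that by granzymes 2.81 for Ltf and 1.28 for Gpx3, and that by expansion 2.61 for Gpx3. With a minimum of 10000 UMIs it was 4.04 between days for Gpx3, 1.34 for Gstm5, 1.60 for Ltf and -0.30 for Gpx3 by granzymes, 4.14 for Ltf by state and 2.24 for Gstm5 by expansion. With no macrophage limit it was 3.62 between days for Gstm5, 0.46 for Gstm5, 1.75 for Ltf and -0.19 for Gpx3 of CD8 over CD4, 1.39 for Ltf by granzymes, 6.23 for Ltf and 2.40 for Gpx3 by state, and 2.39 for Gstm5 and 6.07 for Ltf by expansion. With 0 macrophage UMIs it was 3.10 between days for Gpx3, -0.12 for Ltf and at least 0.12 for Gpx3 of CD8 over CD4, 1.42 for Ltf and 5.46 for Gpx3 by granzymes, 4.62 for Ltf by state, and 2.87 for Ltf and at most -1.21 for Gpx3 by expansion. With 2 UMIs of the coreceptor it was 2.71 for Ltf of CD8 over CD4. Without cycling cells it was 3.52 between days for Gpx3, 4.12 for Ltf and at least 0.64 for Gpx3 of CD8 over CD4, 2.57 for Gstm5, 2.45 for Styk1, 3.25 for Ltf and 5.02 for Gpx3 by granzymes, 7.02 for Styk1 by state, and 5.0 for Gstm5 and 4.45 for Gpx3 by expansion. Thinned to 5000 UMIs it was 3.69 between days and at least 0.88 of CD8 over CD4 for Gpx3, 3.01 for Gstm5 by granzymes, 4.67 for Ltf by state and 4.22 for Gstm5 by expansion. Without the highest cell of each group it was 3.96 between days for Gpx3, 1.85 for Ltf of CD8 over CD4, at most -1.01 for Gpx3 by granzymes and 5.04 for Ltf by state. Without choroid plexus droplets, chosen after seeing the data, it was 5.06 for Ltf by state. Leaving out 1 set at a time, the ranges between days were 4.45 to 6.38 for Gstm5, 3.03 to 3.72 for Styk1, 3.21 to 4.49 for Ltf and 3.97 to 5.57 for Gpx3. Those of CD8 over CD4 were 1.71 to 3.10, 3.43 to 3.80, -0.54 to 3.11 and at least 1.51 to 3.16 in the same order of genes, and those by granzymes 1.86 to 2.14, 1.71 to 1.93, 0.66 to 3.17 and at most -2.11 to 1.40. By state they were 5.53 to 6.82, 4.13 to 5.37, 3.86 to 5.37 and at least 4.72 to 5.45, and by expansion 2.64 to 3.6, 1.64 to 2.73, 1.78 to 5.34 and at most -1.16 to 4.26. In the ranges marked so, the bound is the first value only. The count of members past 2-fold was 4 between days and by state under every setting run except without choroid plexus droplets, where it was 3 for both. It ran from 3 to 4 by expansion and from 2 to 4 by cell class and by granzymes.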
